A study of Mus musculus with 9 samples.

Results

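Type I interferon antiviral effector genes were followed in endothelial cells (ECs) of healthy and metastatic mouse lungs. The set holds 46 named genes, and a gene was measured when the array annotation names it alone on at least 1 probe set (the group of short probes that reports a transcript), by its current symbol or a synonym. On this rule 44 of the 46 genes were measured, by 81 of 34945 probe sets that name a single gene, and each gene is given by its probe set of highest mean, as are all 18193 genes tested. Isg15 was not measured because its probe set is shared with another gene, and Ifi44 because no probe set is listed with it. The gene given here as Rigi, the RNA sensor RIG-I, stands in the annotation under an older symbol.

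The cells were sorted by flow cytometry as CD31+ cells that lack GFP, the epithelial CD326, the leukocyte antigens CD11b and CD45 and the PDGF receptors CD140a and CD140b, and expression was read from Affymetrix mouse arrays. There were 3 groups of 3 arrays, all from NSG mice, an immunodeficient strain without functional T, B and NK cells. Healthy mice received control IgG. Metastatic mice were injected by tail vein at 6 to 8 weeks of age with the human breast cancer cell line MDA-MB-231-LM2, selected for growth in the lung, and received either control IgG or the anti-VEGF antibody B20 at 10 mg/kg, 2 times a week, until their lungs were taken on day 21. The healthy mice were age-matched, and mice of comparable metastatic load were chosen for the arrays. The labels name the arrays biological replicates, so that p-values measure the spread between these samples, and their number limits the precision. Values are log2 intensities, and 1 unit is a doubling of the signal. A difference was called where limma gave a p under 0.05 after Benjamini-Hochberg adjustment over all genes, and its error is the standard error of a difference of group means. Levels of different genes are not compared as amounts of transcript. Only the dim signals of the interferon ligands are set against the array medians and the lowest value.

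Interferons of type I are secreted when a cell senses foreign or misplaced nucleic acid. They act through the receptor IFNAR and the kinases JAK1 and TYK2 on transcription factors that include STAT2 and IRF9 and bind the interferon-stimulated response element (ISRE) of their target genes. The products of these genes sense viral RNA, degrade it, stop translation or hold virus particles at membranes, and ECs of the lung carry the receptor and can respond.

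Nearly the whole set stood higher in ECs of metastatic lungs. In metastasis IgG against healthy IgG, 33 of 44 members were called higher and 0 lower in limma, where 5.55% of all genes tested were called higher and 3.46% lower. At an unadjusted p under 0.05, 39 members were higher and 1 lower (12.5% and 10.8% of all genes), and 41 differences were above 0 (49.8% of all genes). In 40 members every metastatic array lay above every healthy array (15.4% of all genes), in 2 every metastatic array lay below (13.6% of all genes), and in 2 the arrays overlapped. The median difference over the members was 0.70, against -0.00 over all genes, and the differences ran from -0.295 to 3.09. In 14 members the difference was over 1 log2 unit and in 5 over 2. Metastasis anti-VEGF against healthy IgG, which shares the healthy arrays, gave 29 members called higher and 1 lower (4.15% and 2.29% of all genes), 40 with all arrays above and 1 with all below (13.8% and 13.1%), and a median of 0.63. There 38 members were higher and 1 lower at an unadjusted p under 0.05 (11.3% and 9.89% of all genes), and 42 differences were above 0 (47.8%).

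The mean level of the 44 members was 10.21, 10.08 and 10.16 in the healthy arrays. It was 10.998, 11.13 and 11.02 in the metastasis IgG arrays and 11.01, 11.06 and 11.06 in the metastasis anti-VEGF arrays. All healthy arrays thus lay below all metastatic arrays, while the ranges of both metastatic groups overlapped. Within the metastasis IgG group, replicate 2 held the highest value for 29 of the 44 members, with a median deviation of 0.09 from the group mean. Within the healthy group, replicate 2 held the lowest value for 29 members, with a median deviation of -0.08.

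**Figure D1:**
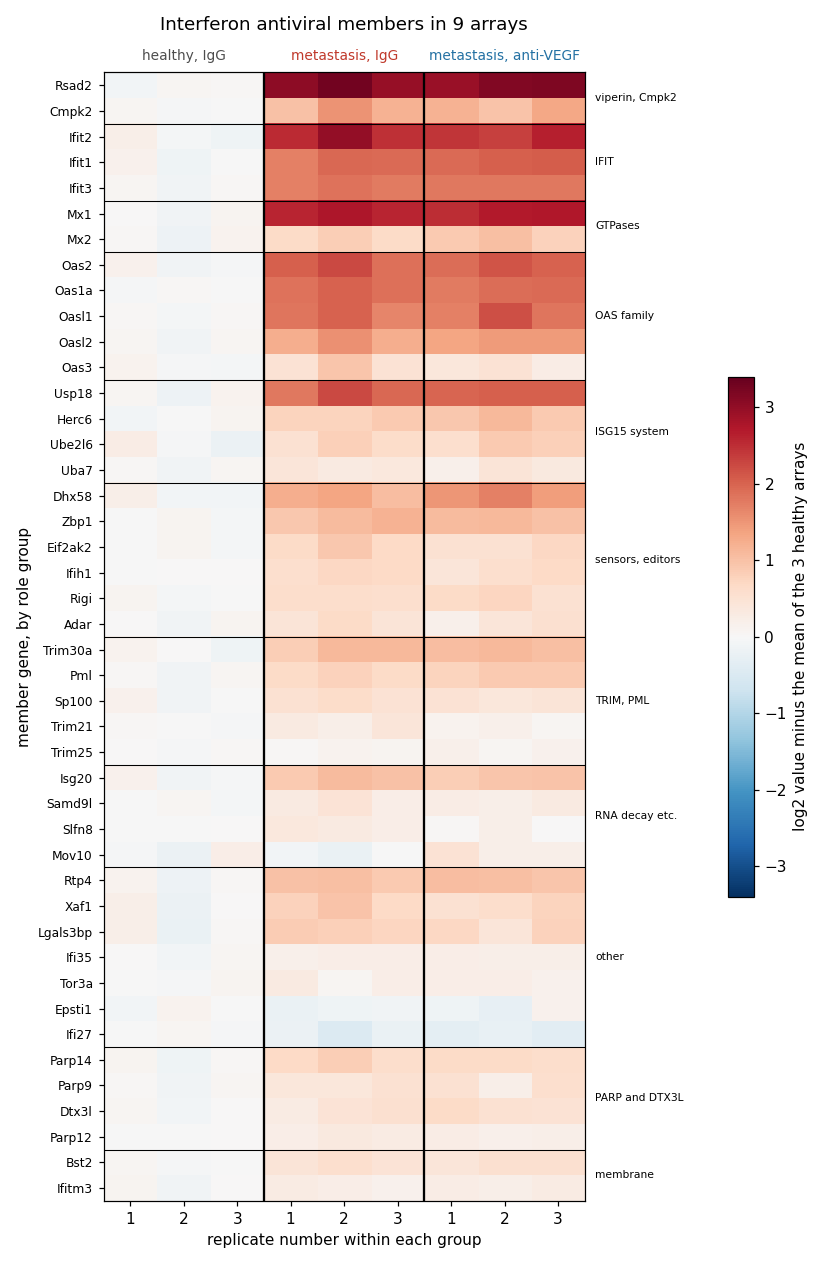
Each row is 1 of the 44 measured members, ordered by role, and each column 1 of the 9 arrays. The color gives the log2 value minus the mean of the 3 healthy arrays, and most rows turn from near 0 in the healthy arrays to positive values in all 6 metastatic arrays, with a group mean of 3.09 for Rsad2 in metastasis IgG.

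Markers of other cells moved with the metastatic groups, and their part in the member differences was not tested. Of 20 macrophage and monocyte markers, 11 were called higher in metastasis IgG, although the sort removed CD45+ and CD11b+ cells. The 2 differences over 2 were those of C1qa (2.64 ± 0.14) and Ms4a7 (2.001 ± 0.10). In the same comparison 0 were called lower and 3 lay below 0. Of these, Mertk was lower at an unadjusted p under 0.05 (-0.23 ± 0.10, adjusted p = 0.212 in limma). The mean level of the 20 markers was 8.34 to 8.67 in healthy, 9.19 to 9.31 in metastasis IgG and 9.21 to 9.51 in metastasis anti-VEGF arrays. Ptprc, which encodes CD45, stood at 8.77, 9.29 and 9.40 in the means of healthy, metastasis IgG and anti-VEGF arrays, and Itgam, which encodes CD11b, at 6.71, 6.96 and 7.04, and neither was called (adjusted p = 0.187 and 0.392 in limma, metastasis IgG against healthy). Of 9 fibroblast and pericyte markers, 5 were called higher, with a mean level of 8.84 to 9.65 in healthy, 9.67 to 10.08 in metastasis IgG and 9.76 to 10.01 in anti-VEGF arrays. Among them was Pdgfrb, which encodes the sort antigen CD140b, at 1.18 ± 0.24 in metastasis IgG and 1.15 ± 0.22 under anti-VEGF (adjusted p = 0.0191 and 0.0206), while Pdgfra, which encodes CD140a, was at -0.45 ± 0.35 and not called (adjusted p = 0.5), although the sort removed cells with either antigen. Of 5 neutrophil markers 1 was called higher, with mean levels of 7.24 to 7.44 and 7.54 to 7.84, and of 8 epithelial markers 1, with mean levels of 8.65 to 9.65 and 9.29 to 9.73. Under anti-VEGF 4 of the 5 neutrophil markers were called higher than in healthy, with mean levels of 7.91 to 8.29. The highest of these levels, in replicate 3, holds a single high value of Mpo, the marker not called. Mpo read 6.99, 6.91 and 9.10 in the anti-VEGF arrays. None of 5 markers of plasmacytoid dendritic cells, which are strong producers of interferon, was called in limma in metastasis IgG. Nor was any of 5 markers of lymphocytes and NK cells, and 0 of either list had an unadjusted p under 0.05. NSG mice lack functional T, B and NK cells, so the result for the lymphocyte and NK cell list tells little. Of 4 platelet markers 1, Ppbp, was called lower in metastasis IgG (-0.54 ± 0.09, adjusted p = 0.00876), and 1, Itga2b, higher under anti-VEGF (0.52 ± 0.07, adjusted p = 0.00463). Their mean level was 8.84 to 8.94 in healthy, 8.58 to 8.74 in metastasis IgG and 8.98 to 9.01 in anti-VEGF arrays, and between the metastatic groups 0 of 4 were called in limma, with 3 higher and 0 lower at an unadjusted p under 0.05. Of 13 endothelial markers 1, Emcn, was called higher in both comparisons with healthy. Eng was at -0.28 ± 0.08 in metastasis IgG, not called (adjusted p = 0.0767), and was called lower under anti-VEGF (-0.38 ± 0.08, adjusted p = 0.0348). The mean level of the 13 markers was 12.76 to 12.82 in healthy, 12.76 to 12.83 in metastasis IgG and 12.78 to 12.825 in anti-VEGF arrays. As a sign of RNA quality, the log2 signal of beta-actin at its 3' end exceeded that at its 5' end by 0.609 to 0.62 in healthy and 0.488 to 0.555 in metastasis IgG arrays, and by 0.526 to 0.62 in anti-VEGF arrays, which overlap the healthy ones. For GAPDH it was 0.0969 to 0.176 in healthy, -0.0338 to 0.0995 in metastasis IgG and 0.0601 to 0.194 in anti-VEGF arrays, all overlapping, and the part of this was not tested either. In such sorted bulk samples, more cells with a transcript and more transcript in each cell cannot be told apart.

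**Figure D2:**
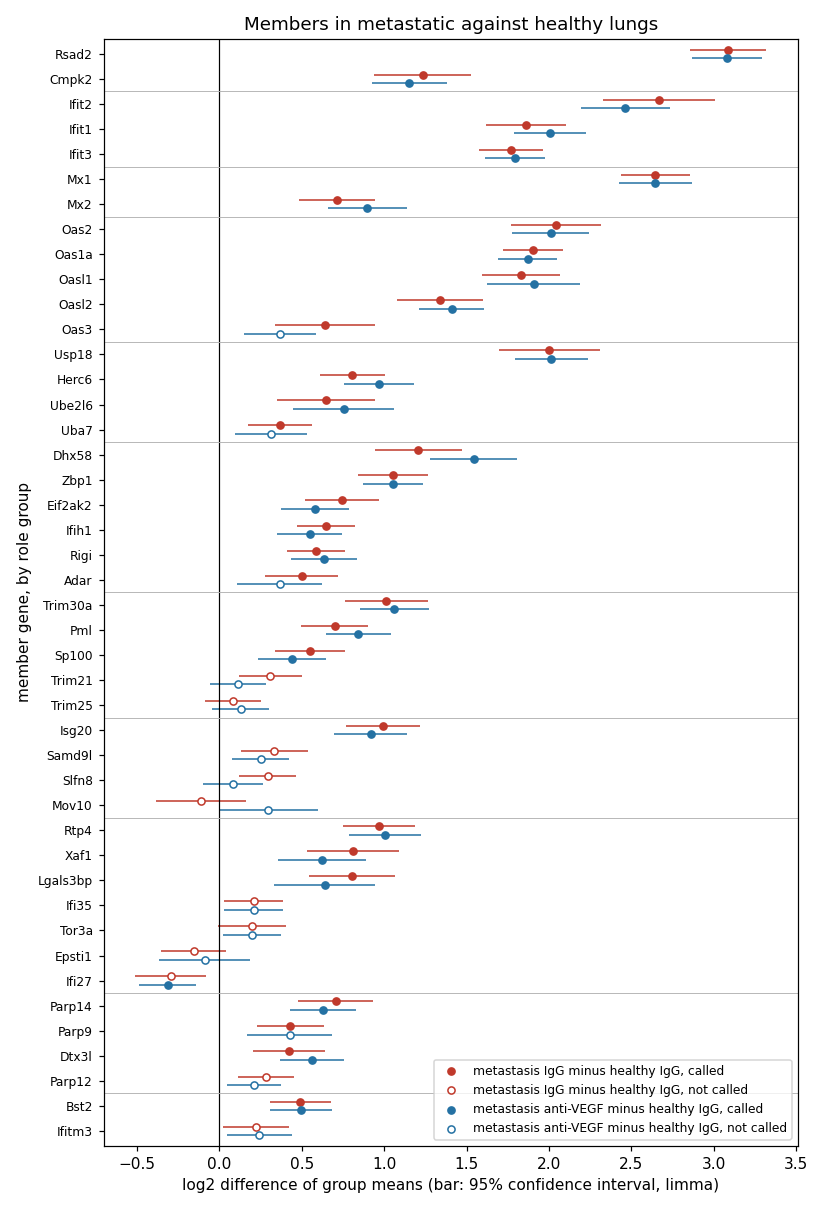
Each row is 1 member, with its log2 difference from the healthy IgG group in metastasis IgG (red) and metastasis anti-VEGF (blue) on the x axis and bars for the 95% confidence interval. Filled points passed the test, namely 33 red and 30 blue, and the largest red difference is the 3.09 of Rsad2.

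The promoters of the members were read for the ISRE core, a sequence that some members of large difference hold and others lack. RefSeq (GRCm38.p6) gave windows from 250 bases before to 50 bases after the transcript start for 35 of the 46 members, and no entry for Dhx58, Ifi27, Mx1, Mx2, Oas2, Parp14, Parp9, Rtp4, Tor3a, Usp18 and Zbp1. The core GAAANNGAAA, searched on both strands, where it reads TTTCNNTTTC on the other, was in 14 of these 35 members (40.0%), and in 1079 of 27025 genes of the whole table (3.99%). The gamma-activated site, TTCNNNGAA, which reads the same on both strands, was in 8 of 35 members (22.9%), and in 9.55% of all genes of the table. Of the members called higher in metastasis IgG, 10 of 24 with an entry held the ISRE core, and of the measured members not called higher 3 of 9. A match is a description of the letters, not a site of binding, and a window without these letters says nothing of the factor.

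The windows below give the 150 bases before the start in the direction of transcription, with whole ISRE core matches in capitals. Rsad2, Ifit1, Ifit3 and Oas1a are shown as members of large difference that hold the core, Ifit2 as one of large difference without it, Bst2 for its overlapping matches and Slfn8 as a member not called that holds it. The members shown were chosen after their values were seen. Cmpk2, Oasl1 and Oasl2, not shown, rose by 1.23, 1.83 and 1.34 in metastasis IgG and hold no core in their windows. Trim30a, not shown, rose by 1.01 and holds it. Ifitm3 and Trim21, which were not called, hold it too. Rsad2 lies at chr12:26456453-26456602 (minus strand), Ifit1 at chr19:34640739-34640888 (plus), Ifit3 at chr19:34583379-34583528 (plus), Ifit2 at chr19:34550938-34551087 (plus, the downstream one of its 2 starts), Oas1a at chr5:120907526-120907675 (minus), Bst2 at chr8:71537473-71537622 (minus) and Slfn8 at chr11:83020723-83020872 (minus).
Rsad2: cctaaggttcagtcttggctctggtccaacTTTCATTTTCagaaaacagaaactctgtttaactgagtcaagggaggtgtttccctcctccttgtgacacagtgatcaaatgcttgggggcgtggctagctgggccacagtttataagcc
Ifit1: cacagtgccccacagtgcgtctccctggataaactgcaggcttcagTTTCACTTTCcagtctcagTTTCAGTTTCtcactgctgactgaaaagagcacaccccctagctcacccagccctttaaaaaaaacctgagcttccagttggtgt
Ifit3: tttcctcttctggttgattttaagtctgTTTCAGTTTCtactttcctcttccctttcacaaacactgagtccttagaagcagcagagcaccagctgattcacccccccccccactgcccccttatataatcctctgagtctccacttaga
Ifit2: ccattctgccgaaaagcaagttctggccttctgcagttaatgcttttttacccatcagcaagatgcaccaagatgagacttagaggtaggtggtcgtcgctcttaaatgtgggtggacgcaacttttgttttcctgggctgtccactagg
Oas1a: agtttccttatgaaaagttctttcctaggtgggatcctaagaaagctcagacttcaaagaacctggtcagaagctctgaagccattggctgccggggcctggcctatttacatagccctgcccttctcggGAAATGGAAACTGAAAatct
Bst2: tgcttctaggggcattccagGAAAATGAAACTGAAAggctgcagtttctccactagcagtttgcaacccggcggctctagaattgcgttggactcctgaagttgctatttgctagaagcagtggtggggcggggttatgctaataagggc
Slfn8: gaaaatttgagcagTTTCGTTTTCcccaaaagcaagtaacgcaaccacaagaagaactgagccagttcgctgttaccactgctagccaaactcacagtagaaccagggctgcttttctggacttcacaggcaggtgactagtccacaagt
In Ifit1 the first bases of the matches lay at -104 and -85 from the start. The 2 matches of Oas1a overlapped each other, as did those of Bst2, and in Bst2 the first also overlapped a gamma-activated site match. Ifit3 held another match that begins at -156, at the edge of the printed window. Isg15, the ubiquitin-like modifier that could not be measured, held 3 matches from -78 to -57, each overlapping the next. Over the 44 windows of the 35 members there were 24 matches, of which 16 began before the start and 15 within 150 bases of it, and windows of 1 gene can share a match, as in Slfn8.

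**Figure D3:**
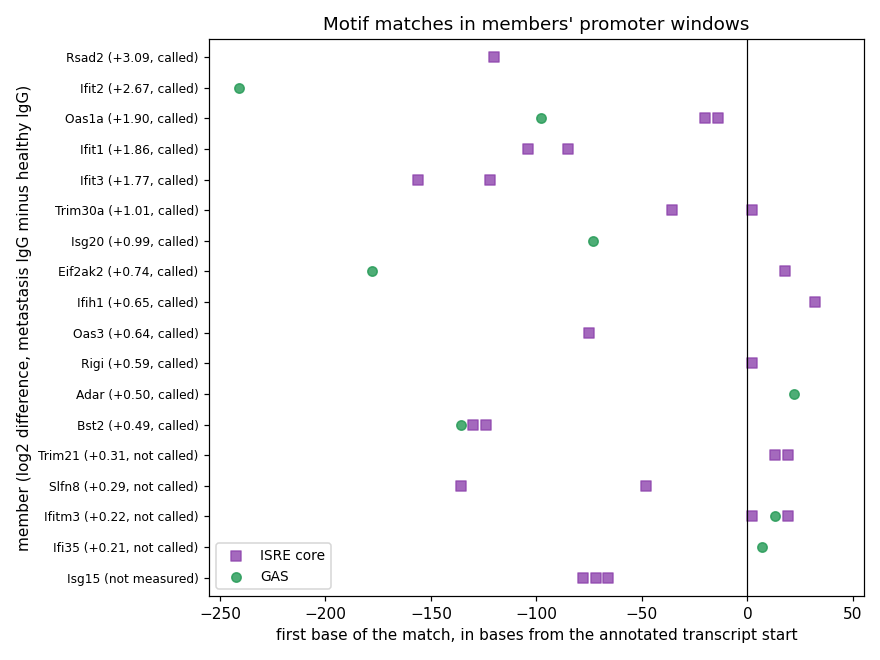
Positions of matches to the ISRE core (squares) and the gamma-activated site (circles) in the promoter windows of members that hold at least 1 match, in bases from the annotated transcript start, with the log2 difference in metastasis IgG beside each name. ISRE core matches stand in 10 members called higher, in 3 not called and in Isg15, and they lie on both sides of the start.

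The largest difference of the set was that of Rsad2, which encodes viperin, an enzyme that turns CTP into a chain-terminating nucleotide. Rsad2 read 9.22, 9.36 and 9.34 in the healthy arrays, 12.34, 12.58 and 12.27 in metastasis IgG and 12.23, 12.45 and 12.47 in metastasis anti-VEGF. All 6 metastatic arrays stood far above the healthy ones, and both metastatic groups overlapped. The rise was 3.09 ± 0.10 (adjusted p = 6.77e-06), an 8.50-fold higher signal, and 3.08 ± 0.09 under anti-VEGF (adjusted p = 4.04e-06). Its other probe sets gave 2.82 and 3.61 in metastasis IgG. Cmpk2, a mitochondrial nucleotide kinase whose gene is the next coding gene to Rsad2 on chromosome 12, read 10.59, 10.48 and 10.52 in healthy, 11.53, 12.05 and 11.72 in metastasis IgG and 11.71, 11.51 and 11.84 in anti-VEGF arrays. Again no metastatic array came down to the healthy range. Cmpk2 rose by 1.23 ± 0.13 (adjusted p = 0.000998) and by 1.15 ± 0.10 under anti-VEGF (adjusted p = 0.000565).

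All 3 IFIT genes, whose products bind viral RNA and the translation machinery, were higher in both metastatic groups. Ifit2 was at 9.24, 8.97 and 8.89 in healthy, 11.57, 12.01 and 11.52 in metastasis IgG and 11.46, 11.37 and 11.67 in anti-VEGF arrays, and metastasis IgG replicate 2 was the highest of the 9. This amounts to a rise of 2.67 ± 0.15 (adjusted p = 5.39e-05), and of 2.46 ± 0.12 under anti-VEGF (adjusted p = 2.74e-05). Ifit3, its neighbour on chromosome 19, showed the smallest difference of the 3, with 10.89, 10.72 and 10.88 in healthy, 12.53, 12.68 and 12.59 in metastasis IgG and 12.62, 12.62 and 12.63 in anti-VEGF arrays. The metastatic arrays lay close together and all above the healthy arrays. Ifit3 rose by 1.77 ± 0.08 (adjusted p = 3.23e-05) and 1.80 ± 0.08 (adjusted p = 2.28e-05). Between them stood Ifit1, the best known cap sensor of the family, with a rise of 1.86 ± 0.11 in metastasis IgG (adjusted p = 5.65e-05).

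The dynamin-like GTPases Mx1 and Mx2, which block early steps of virus replication, both rose. For Mx1 the arrays read 7.30, 7.16 and 7.38 (healthy), 9.87, 10.02 and 9.87 (metastasis IgG) and 9.79, 9.97 and 10.01 (anti-VEGF), with no overlap between healthy and metastatic arrays. The difference was 2.64 ± 0.09 (adjusted p = 6.77e-06), a 6.25-fold higher signal, and 2.65 ± 0.10 under anti-VEGF (adjusted p = 7.2e-06). Mx2 moved less, from 8.66, 8.46 and 8.75 in healthy to 9.27, 9.46 and 9.29 in metastasis IgG and 9.52, 9.65 and 9.41 in anti-VEGF arrays. No healthy array reached the metastatic ones. The rise of Mx2 was 0.71 ± 0.10 (adjusted p = 0.00423) and 0.90 ± 0.10 under anti-VEGF (adjusted p = 0.0022).

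Of the ISG15 conjugation system, which attaches the ubiquitin-like ISG15 to proteins, 4 of 4 measured members were called higher in metastasis IgG. Usp18, the protease that removes ISG15 and also dampens the receptor, was at 9.60, 9.34 and 9.64 in healthy, 11.33, 11.78 and 11.47 in metastasis IgG and 11.51, 11.55 and 11.56 in anti-VEGF arrays. It rose by 2.002 ± 0.13 (adjusted p = 0.000138), a 4.005-fold higher signal, and by 2.01 ± 0.10 under anti-VEGF (adjusted p = 2.74e-05), with the groups far apart. Herc6, the main ISG15 ligase of the mouse, read 10.21, 10.29 and 10.40 in healthy, 11.07, 11.07 and 11.20 in metastasis IgG and 11.22, 11.41 and 11.19 in anti-VEGF arrays, and it rose by 0.81 ± 0.09 (adjusted p = 0.00106) and 0.97 ± 0.09 (adjusted p = 0.000932). All 4 of its probe sets were called higher in both comparisons with healthy lungs. Ube2l6, the conjugating enzyme, rose by 0.65 ± 0.13 (adjusted p = 0.0199) and had the widest spread of all members between healthy arrays (SD 0.23, n = 3). Uba7, the activating enzyme, showed the smallest difference, with 11.003, 10.83 and 11.03 in healthy, 11.38, 11.27 and 11.32 in metastasis IgG and 11.14, 11.38 and 11.28 in anti-VEGF arrays. Its arrays did not overlap with the healthy ones, and the difference was called in metastasis IgG (0.37 ± 0.08, adjusted p = 0.0338) and not under anti-VEGF (0.31 ± 0.10, adjusted p = 0.101). The other probe sets of Uba7 gave 0.24 and 0.27 in metastasis IgG, and neither was called.

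Enzymes of the OAS family make the short oligoadenylates that switch on RNase L. Counting the OAS-like genes, 5 of 5 measured members of the family rose in metastasis IgG. Oas2 was at 9.22, 8.95 and 9.02 in healthy, 11.09, 11.31 and 10.93 in metastasis IgG and 10.97, 11.20 and 11.07 in anti-VEGF arrays, with all metastatic arrays above the healthy ones. It rose by 2.04 ± 0.12 (adjusted p = 5.76e-05) and 2.01 ± 0.10 (adjusted p = 3.04e-05). Oas1a read 9.01, 9.08 and 9.03 in healthy, 10.89, 11.04 and 10.91 in metastasis IgG and 10.82, 10.95 and 10.97 in anti-VEGF arrays, and rose by 1.90 ± 0.08 (adjusted p = 1.39e-05) and 1.87 ± 0.08 (adjusted p = 1.71e-05). The OAS-like Oasl1 and Oasl2, which lie next to each other on chromosome 5, rose by 1.83 ± 0.10 and 1.34 ± 0.11 (adjusted p = 5.39e-05 and 0.000406). Oas3, next to Oas2 on chromosome 5, showed the smallest difference of the family. Oas3 read 7.27, 7.10 and 7.08 in healthy, 7.65, 8.09 and 7.63 in metastasis IgG, where replicate 2 stood above the rest, and 7.53, 7.63 and 7.39 in anti-VEGF arrays. It was called in metastasis IgG (0.64 ± 0.13, adjusted p = 0.0217) and not under anti-VEGF (0.37 ± 0.09, adjusted p = 0.0598).

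**Figure D4:**
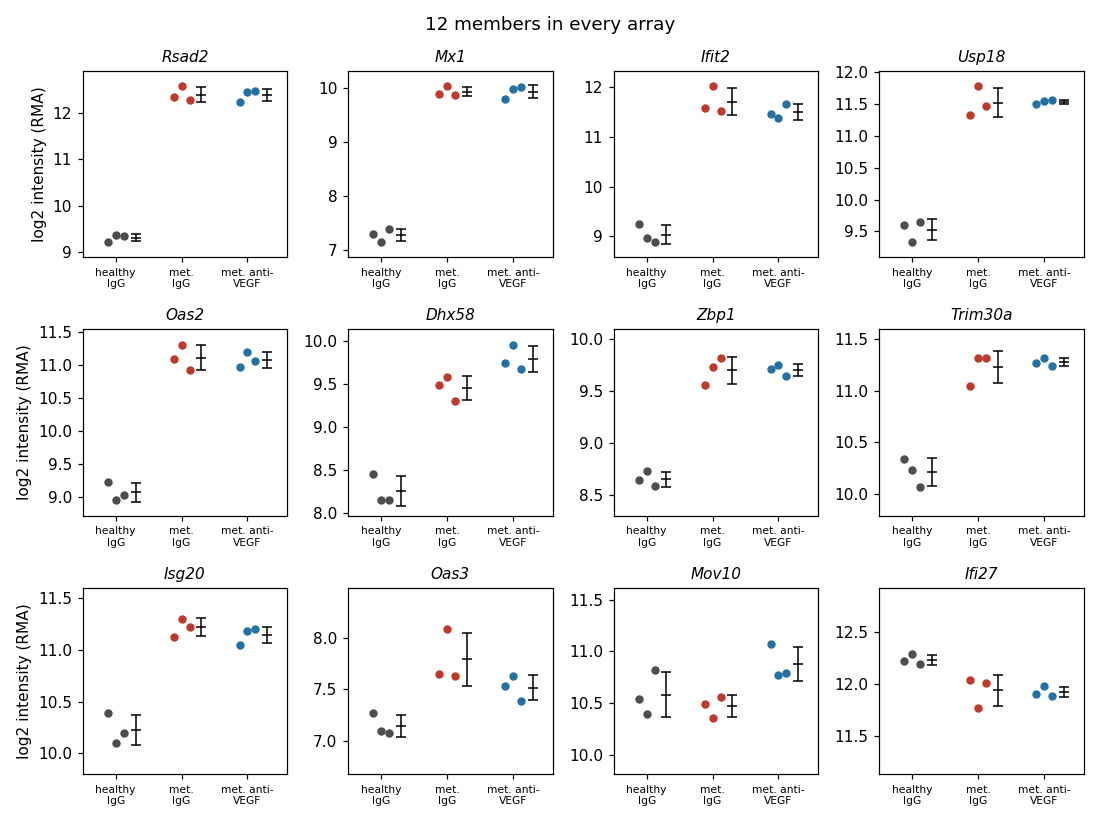
The log2 intensity of 12 members in every array, with a panel and its own y axis for each gene, points for arrays, and a dash with bar for the mean and SD of the 3 arrays of a group. In Rsad2, Mx1, Ifit2, Usp18 and Oas2 the metastatic means lie up to 3.09 units above the healthy mean in metastasis IgG, the 3 anti-VEGF arrays of Mov10 lie above its 3 metastasis IgG arrays, and those of Ifi27 lie below healthy in both metastatic groups.

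Sensors and editors of RNA and DNA were called higher in 6 of 6 cases in metastasis IgG. Dhx58 (LGP2), which tunes the RNA sensors, was at 8.45, 8.15 and 8.15 in healthy, 9.495, 9.58 and 9.30 in metastasis IgG and 9.75, 9.96 and 9.67 in anti-VEGF arrays. The 3 groups did not overlap in either step. Dhx58 rose by 1.21 ± 0.11 (adjusted p = 0.000693), and by 1.54 ± 0.12 under anti-VEGF (adjusted p = 0.000296). Zbp1, the sensor of left-handed nucleic acid, read 8.64, 8.73 and 8.58 in healthy, 9.56, 9.73 and 9.82 in metastasis IgG and 9.72, 9.75 and 9.64 in anti-VEGF arrays, and rose by 1.06 ± 0.09 (adjusted p = 0.00048) and 1.05 ± 0.08 (adjusted p = 0.000296), while its other probe set gave 1.91 in metastasis IgG. The RNA sensors Rigi and Ifih1 (MDA5) rose by 0.59 ± 0.08 and 0.65 ± 0.08, and the kinase Eif2ak2 (PKR), which stops translation, by 0.74 ± 0.10 (adjusted p = 0.00305, 0.00197 and 0.00293). Adar, the editor that marks a cell's own double-stranded RNA, showed the smallest difference of these genes, with 10.45, 10.32 and 10.54 in healthy, 10.87, 11.08 and 10.87 in metastasis IgG and 10.60, 10.84 and 10.97 in anti-VEGF arrays. No healthy array overlapped either metastatic group, and anti-VEGF replicate 1 was the lowest metastatic array. On this probe set Adar was called in metastasis IgG (0.50 ± 0.10, adjusted p = 0.0163) and not under anti-VEGF (0.37 ± 0.11, adjusted p = 0.1). A probe set of Adar with nearly the same mean (10.69 against 10.73) gave 0.56 under anti-VEGF. It was called in limma over probe sets (adjusted p = 0.0278), while the remaining, dimmer one gave 0.45 and was not called. Whether Adar was called under anti-VEGF thus depends on the probe set.

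Of the ADP-ribosyltransferases and their partner Dtx3l, 3 of 4 were called higher in metastasis IgG and 2 of 4 under anti-VEGF. Parp14, which lies beside Dtx3l and Parp9 on chromosome 16, read 11.91, 11.67 and 11.85 in healthy, 12.49, 12.65 and 12.41 in metastasis IgG and 12.46, 12.46 and 12.40 in anti-VEGF arrays. It rose by 0.71 ± 0.10 (adjusted p = 0.00395) and 0.63 ± 0.09 (adjusted p = 0.00532), with no overlap, although its other probe set gave 0.15 in metastasis IgG and was not called. Parp9, the binding partner of Dtx3l, read 11.55, 11.38 and 11.57 in healthy, 11.89, 11.88 and 12.03 in metastasis IgG and 12.01, 11.71 and 12.07 in anti-VEGF arrays, and the lowest of the metastatic values was anti-VEGF replicate 2. Its difference was called in metastasis IgG (0.43 ± 0.09, adjusted p = 0.0212) and not under anti-VEGF (0.43 ± 0.11, adjusted p = 0.0641). Dtx3l, a ubiquitin ligase, rose by 0.42 ± 0.09 and 0.56 ± 0.08 (adjusted p = 0.03 and 0.00734). Parp12, which slows translation, was at 12.12, 12.12 and 12.13 in healthy, 12.34, 12.46 and 12.40 in metastasis IgG and 12.37, 12.29 and 12.33 in anti-VEGF arrays. The arrays were apart in both comparisons, and neither difference was called (0.28 ± 0.07, adjusted p = 0.0541, and 0.21 ± 0.07, adjusted p = 0.136).

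Among TRIM proteins and members of PML nuclear bodies, 3 of 5 were called higher in both comparisons. Trim30a, a regulator of innate signalling, was at 10.34, 10.23 and 10.07 in healthy, 11.05, 11.32 and 11.32 in metastasis IgG and 11.27, 11.32 and 11.24 in anti-VEGF arrays, a rise of 1.01 ± 0.11 (adjusted p = 0.00122) and 1.06 ± 0.09 (adjusted p = 0.000565). Pml, the scaffold of the bodies, read 10.05, 9.88 and 10.06 in healthy, 10.66, 10.79 and 10.63 in metastasis IgG and 10.76, 10.88 and 10.87 in anti-VEGF arrays. Its groups stood apart, and it rose by 0.70 ± 0.09 (adjusted p = 0.0024) and 0.84 ± 0.09 (adjusted p = 0.00126), while the dimmest of its 3 probe sets gave 0.07 in metastasis IgG. Sp100, another body component, rose by 0.55 ± 0.09 and 0.44 ± 0.09 (adjusted p = 0.0094 and 0.0267). Trim21, the cytosolic antibody receptor, read 10.49, 10.44 and 10.40 in healthy, 10.75, 10.64 and 10.86 in metastasis IgG and 10.55, 10.60 and 10.52 in anti-VEGF arrays, and its difference was not called in either comparison (0.31 ± 0.08, adjusted p = 0.0608, and 0.12 ± 0.07, adjusted p = 0.434). Trim25, a ligase that works with RIG-I, had 12.68, 12.61 and 12.70 in healthy, 12.71, 12.79 and 12.75 in metastasis IgG and 12.84, 12.73 and 12.80 in anti-VEGF arrays. All healthy arrays lay below all others, and the differences of 0.08 ± 0.07 and 0.13 ± 0.08 were not called (adjusted p = 0.561 and 0.385).

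Both membrane factors stood higher in every metastatic array, with Bst2 called and Ifitm3 not. Bst2, or tetherin, which holds budding particles at the cell surface, was at 12.37, 12.25 and 12.27 in healthy, 12.72, 12.88 and 12.76 in metastasis IgG and 12.70, 12.84 and 12.83 in anti-VEGF arrays, and rose by 0.49 ± 0.08 (adjusted p = 0.00859) and 0.49 ± 0.08 (adjusted p = 0.01). Ifitm3, which hinders fusion of virus with endosomes, read 12.51, 12.28 and 12.42 in healthy, 12.67, 12.64 and 12.55 in metastasis IgG and 12.66, 12.59 and 12.69 in anti-VEGF arrays. No array overlapped, and the differences were 0.22 ± 0.09 (adjusted p = 0.174) and 0.24 ± 0.09 (adjusted p = 0.15).

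Genes of RNA decay, RNA unwinding and translation restriction were mixed, with 1 of 4 called higher. Isg20, an exonuclease, was at 10.39, 10.10 and 10.20 in healthy, 11.13, 11.30 and 11.22 in metastasis IgG and 11.05, 11.18 and 11.20 in anti-VEGF arrays. All metastatic arrays were above the healthy ones, by 0.99 ± 0.10 (adjusted p = 0.000818) and 0.92 ± 0.10 (adjusted p = 0.0015) in the means. Samd9l, a restrictor of translation, had 11.77, 11.83 and 11.72 in healthy, 12.07, 12.24 and 12.01 in metastasis IgG and 12.01, 11.98 and 12.07 in anti-VEGF arrays, with groups apart and differences of 0.33 ± 0.09 and 0.25 ± 0.08 that were not called (adjusted p = 0.055 and 0.0968). Slfn8, of the Schlafen family, read 8.26, 8.25 and 8.29 in healthy, 8.61, 8.58 and 8.48 in metastasis IgG and 8.31, 8.45 and 8.28 in anti-VEGF arrays. Only the metastasis IgG arrays stood clear of the healthy ones, and the differences were 0.29 ± 0.08 (adjusted p = 0.0506) and 0.08 ± 0.08 (adjusted p = 0.614), not called. Mov10, an RNA helicase, was at 10.54, 10.39 and 10.82 in healthy, 10.49, 10.36 and 10.56 in metastasis IgG and 11.07, 10.77 and 10.79 in anti-VEGF arrays. Healthy and metastasis IgG arrays overlapped, as did healthy and anti-VEGF arrays, and neither -0.11 ± 0.12 (adjusted p = 0.641) nor 0.30 ± 0.13 (adjusted p = 0.242) was called. Its other probe set gave 0.10 in metastasis IgG, of opposite sign.

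Of the 7 other measured members, 3 were called higher and 4 not called in metastasis IgG. Rtp4, a receptor chaperone, was at 10.81, 10.52 and 10.74 in healthy, 11.69, 11.71 and 11.58 in metastasis IgG and 11.74, 11.71 and 11.63 in anti-VEGF arrays, and rose by 0.97 ± 0.10 (adjusted p = 0.00084) and 1.01 ± 0.09 (adjusted p = 0.000895). Xaf1, a partner of the apoptosis inhibitor XIAP, read 9.67, 9.28 and 9.47 in healthy, 10.25, 10.45 and 10.16 in metastasis IgG and 9.99, 10.08 and 10.22 in anti-VEGF arrays, and rose by 0.81 ± 0.12 (adjusted p = 0.00538) and 0.62 ± 0.12 (adjusted p = 0.0173). In both genes the healthy arrays lay below all metastatic arrays. Lgals3bp, a secreted glycoprotein, rose by 0.80 ± 0.11 and 0.64 ± 0.13 (adjusted p = 0.0042 and 0.0288). Ifi35, a cytosolic protein that can be released as an alarm signal, read 11.71, 11.60 and 11.76 in healthy, 11.85, 11.91 and 11.93 in metastasis IgG and 11.92, 11.88 and 11.89 in anti-VEGF arrays, and the differences of 0.21 ± 0.08 and 0.21 ± 0.08 were not called (adjusted p = 0.159 and 0.169). Tor3a, an ATPase of the endoplasmic reticulum, had 11.09, 11.06 and 11.19 in healthy, 11.42, 11.18 and 11.33 in metastasis IgG and 11.34, 11.34 and 11.26 in anti-VEGF arrays. One metastasis IgG array of Tor3a fell within the healthy range, and 0.20 ± 0.09 and 0.20 ± 0.08 were not called (adjusted p = 0.236 and 0.188).

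A pair of members stood below 0 on the probe set used, apart from Mov10. Ifi27, a small mitochondrial and nuclear envelope protein, read 12.22, 12.29 and 12.20 in healthy, 12.04, 11.77 and 12.01 in metastasis IgG and 11.90, 11.98 and 11.89 in anti-VEGF arrays. Every metastatic array lay below every healthy one. The difference was -0.295 ± 0.09 in metastasis IgG, not called (adjusted p = 0.0996), and -0.31 ± 0.08 under anti-VEGF, called lower (adjusted p = 0.0466). The call of Ifi27 was lost when any 1 of the 6 arrays was left out. Ifi27l2a, a relative that carries Ifi27 as an older name, was not counted as a member because Ifi27 is the current symbol of the gene above, though the list's name could also mean it. Ifi27l2a was at 7.79, 7.71 and 7.77 in healthy, 9.55, 9.92 and 9.19 in metastasis IgG and 9.53, 9.52 and 9.77 in anti-VEGF arrays. It rose by 1.80 ± 0.16 (adjusted p = 0.000564). Epsti1, an interferon-induced gene of epithelial and immune cells, read 7.57, 7.78 and 7.65 in healthy, 7.45, 7.53 and 7.56 in metastasis IgG and 7.52, 7.39 and 7.82 in anti-VEGF arrays on the probe set used. Its differences there were -0.16 ± 0.09 (adjusted p = 0.327) and -0.09 ± 0.12 (adjusted p = 0.734), not called. Its other 3 probe sets gave 0.03, 0.57 and 1.14 in metastasis IgG, and the last of these was called over probe sets (6.53, 6.71 and 7.07 in healthy and 7.87, 8.50 and 7.36 in metastasis IgG arrays, adjusted p = 0.0363), so that the direction of Epsti1 depends on the probe set.

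Over all 81 member probe sets, 53 were called higher and 0 lower in metastasis IgG (4.43% and 2.98% of all single-gene probe sets), and 77 lay above 0. In metastasis anti-VEGF against healthy, 49 were called higher and 0 lower (3.32% and 2.09% of all such probe sets). In metastasis IgG, of the 23 members with several probe sets, 11 had all of them called higher, 6 some and 6 none.

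No member was called between the metastatic groups. In metastasis anti-VEGF against metastasis IgG, 0 of 44 members were called in limma, as was 0.0% of all genes in either direction. At an unadjusted p under 0.05, 2 members were higher and 1 lower, where 3.83% and 4.2% of all genes were. Arrays of both groups did not overlap in 2 members with anti-VEGF higher (6.2% of all genes) and in 2 with it lower (6.91%). The median difference was 0.00, 22 members lay above 0 (48.3% of all genes) and 22 below, and the differences ran from -0.27 to 0.41. For 44 of 44 members the 95% confidence interval stayed within 1 log2 unit of 0, and for 40 of 44 within 0.5, while the interval's median half-width was 0.22. Smaller shifts could not be seen at this precision.

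**Figure D5:**
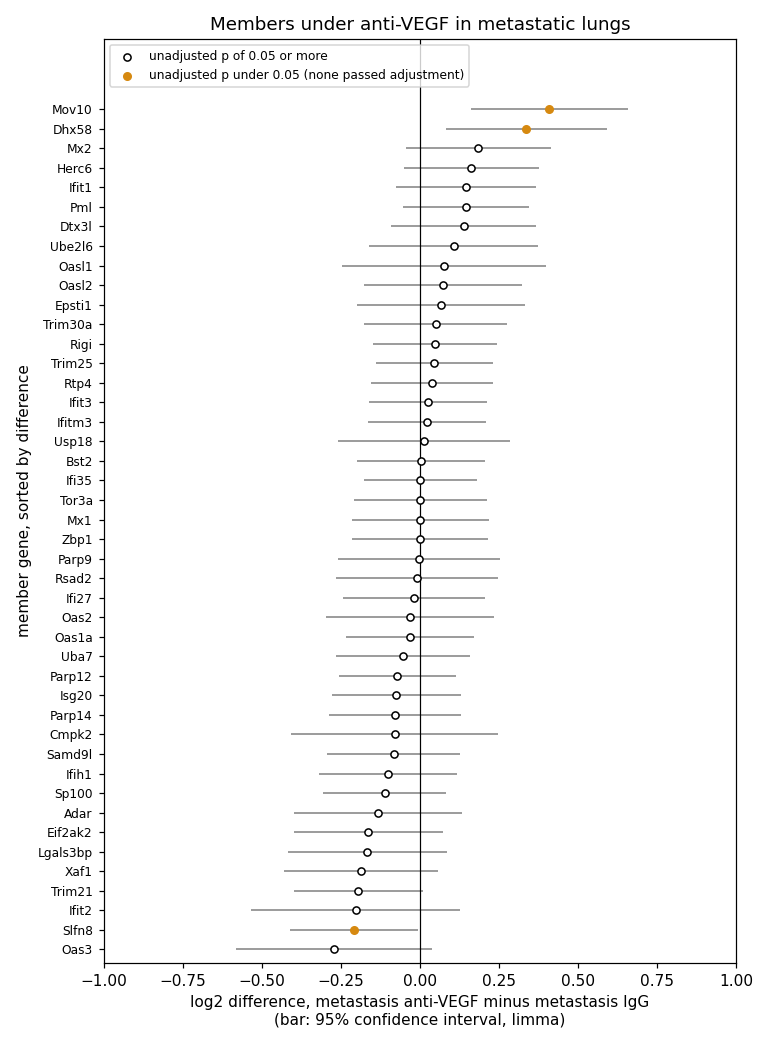
Each row is 1 member, sorted by its log2 difference between metastasis anti-VEGF and metastasis IgG, with bars for the 95% confidence interval. All bars stay within 1 unit of 0, and 41 of 44 hold 0, the exceptions being Mov10 and Dhx58 above and Slfn8 below.

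The members of smallest p were Mov10, Dhx58 and Slfn8. Mov10 was 10.49, 10.36 and 10.56 with IgG and 11.07, 10.77 and 10.79 with anti-VEGF, so all treated arrays lay above. Its difference of 0.41 ± 0.11 (95% interval 0.16 to 0.66, adjusted p = 0.433) did not pass, and the other probe set of Mov10 gave 0.03. For Dhx58 the treated arrays also lay above all IgG arrays, by 0.34 ± 0.11 in the means (interval 0.08 to 0.59, adjusted p = 0.491), while its other probe sets gave -0.12 and 0.22. Slfn8 lay lower in all treated arrays, with a difference of -0.21 ± 0.09 (interval -0.41 to -0.01, adjusted p = 0.609). Trim21 was the other member with all treated arrays lower (-0.19 ± 0.09, interval -0.40 to 0.01, adjusted p = 0.638), and Oas3 had the lowest difference (-0.27 ± 0.14, interval -0.58 to 0.04, adjusted p = 0.668) with overlapping arrays. None of these 5 passed the adjustment in limma. On the probe sets used, Uba7, Oas3, Adar and Parp9 were called against healthy with IgG and not with anti-VEGF. Another probe set of Adar was called with anti-VEGF too. None of these genes was called when the metastatic groups were set against each other.

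The genes around the members in the pathway were taken from lists of 59 genes, of which 54 were measured. Of these, 14 were called higher and 0 lower in metastasis IgG, where 5.55% and 3.46% of all genes were, and 17 higher and 0 lower in metastasis anti-VEGF, where 4.15% and 2.29% were, both against healthy. The ligands did not stand out, with 0 of 8 called in limma in either comparison (0 higher and 1 lower at an unadjusted p under 0.05 in metastasis IgG). Their signals were dim, with means over the 9 arrays from 6.23 (Ifna2) to 8.80 (Ifna1). All but Ifna1 lay below the array medians of 8.31, and the lowest value of any probe set was 5.38. A change in transcripts this dim could be missed. Ifnb1 was at 7.13, 7.20 and 7.22 in the means of healthy, metastasis IgG and metastasis anti-VEGF, and Ifng, the type II interferon, at 6.50, 6.50 and 6.52. Of 6 receptor chains 0 were called (2 higher and 1 lower at an unadjusted p under 0.05), and Ifnar1 differed by 0.26 ± 0.08 in metastasis IgG (adjusted p = 0.085).

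Below the receptor, Stat2 and Irf9 rose by 0.64 ± 0.09 and 0.50 ± 0.08 in metastasis IgG (adjusted p = 0.00462 and 0.00735), and the kinases Jak1, Jak2 and Tyk2 were not called. Irf7, which drives interferon transcription, was the one of 6 interferon regulatory factors called. It read 9.52, 9.34 and 9.40 in healthy, 11.45, 11.74 and 11.32 in metastasis IgG and 11.45, 11.61 and 11.53 in anti-VEGF arrays, a rise of 2.08 ± 0.12 (adjusted p = 5.39e-05) with no overlap. Of 11 adaptors, kinases and sensors that lead to interferon, 1 was called, namely Sting1, the adaptor of cytosolic DNA sensing, which rose by 1.56 ± 0.09 (adjusted p = 6.19e-05). Of 5 feedback inhibitors 0 were called in limma in metastasis IgG (1 higher and 0 lower at an unadjusted p under 0.05), while Ptpn6, a phosphatase of blood cells, rose by 0.60 ± 0.08 in metastasis anti-VEGF against healthy (adjusted p = 0.00525). Targets that lean to interferon gamma were called higher in 10 of 13 cases, with the chemokine Cxcl10 at 1.55 ± 0.14 and the regulator of MHC class I genes Nlrc5 at 1.37 ± 0.15 (adjusted p = 0.000496 and 0.00125). In metastasis anti-VEGF against metastasis IgG, 0 of the 54 pathway genes were called in limma, with 5 higher and 1 lower at an unadjusted p under 0.05.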

How the data were processed

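RNA of sorted lung ECs in 9 samples, 3 per group, was hybridized to Affymetrix mouse expression arrays. The deposited table holds log2 intensities of 45101 probe sets, which the authors normalized by RMA in Chipster 3.8.0, so that all arrays share 1 distribution and a shift common to most genes could not be seen. Probe sets of several genes (932) and control probe sets (64) were left out. Each of 18193 genes was given by its single-gene probe set of highest mean. Pairs of groups, grouped by the labels, were compared with limma 3.58.1 (lmFit, eBayes) in R 4.3.3, with Benjamini-Hochberg adjustment over all genes. The script was tested on simulated data. Tables and figures were made with Python 3.11.15, pandas 2.3.3 and matplotlib 3.10.9. Full values are given for 34 members, by a rule: in each role group those of largest and smallest difference, those not called, and those of smallest p under anti-VEGF, and for further members in brief. Members, pathway lists and markers were chosen with earlier results of these data known. Alternatives were other fits, probe set choices, normalizations, thresholds, a replicate block and leaving out each array. Promoter windows came from RefSeq (GRCm38.p6).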

Additional observations from a re-analysis of the deposited data

How the results depend on the processing

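The count of members called higher in metastasis IgG against healthy was 33, and it was 27 to 31 when 1 array was left out, 19 at a fold threshold (log2 difference over 0.75, unadjusted p under 0.05 and adjusted p under 0.25, as the methods set for upregulated secreted factors and not for the anti-VEGF arrays) and 27 on probe sets without a shared suffix. Probe sets without a shared suffix measured 37 members, and 5 of the 33 (Cmpk2, Isg20, Mx1, Oasl2 and Trim30a) were not measured there. Among the fits without 1 array, the count was lowest without healthy replicate 2. Of the 33 calls, 27 were kept in all fits without 1 array. Adar, Dtx3l, Oas3, Parp9, Uba7 and Ube2l6 were lost in some of these. In all settings other than the fold threshold 22 were kept, with the 5 not measured counted as lost. The count called lower was 0, and 0 without any 1 array, but 1 with the mean of the probe sets of a gene and 1 with the trend and robust settings. The median of 0.70 became 0.64 with the mean of probe sets and 0.64 with each probe set on its own, and 0.64 to 0.73 without 1 array. Against healthy under anti-VEGF, 29 were called higher, and 25 to 29 without 1 array. The 1 called lower, Ifi27, became 0 with all 9 arrays in 1 fit, with each probe set on its own, at the fold threshold and without any 1 array (0 to 0). The count was also 0 without shared suffixes, where Ifi27 was not measured. The median of 0.63 became 0.56 with each probe set on its own, and 0.58 to 0.70 without 1 array. Between the metastatic groups 0 members were called in limma in every setting, and the median was -0.03 to 0.04 without 1 array. Signs turned for Mov10 in metastasis IgG without healthy replicate 3 (0.0059, with -0.21 to 0.0059 over all arrays left out), for Epsti1 with the mean of probe sets (0.40 in metastasis IgG and 0.42 under anti-VEGF, adjusted p = 0.0134) and under anti-VEGF without anti-VEGF replicate 2 (0.0028, with -0.21 to 0.0028 over all arrays left out), and for Dhx58 between the metastatic groups without shared suffixes (-0.12). The cause was not tested. Of 1562 values of single genes under alternatives, 51 lost a call with the same sign and 33 gained one with the same sign, while Epsti1 gained one with its sign turned. The filter at a mean of 5 removed no gene, so a filter at 8 was added after seeing the data.

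Same-numbered arrays did not deviate together (correlations of -0.08 to 0.01), while pairs of other numbers ran from -0.145 to 0.177. The numbers thus gave no sign of pairing, though with 3 arrays a group a weak pairing could not be seen. With the replicate block, 30 members were called higher in metastasis IgG and 30 under anti-VEGF, both against healthy, and the 1 called lower became 0.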
